A study of Mus musculus with 6 samples.

Results

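Kupffer cells are the resident macrophages of the liver, and 10 genes that mark them were followed here in bulk liver RNA. The genes were the rows of the deposited table of 23036 genes whose symbol was Cd163, Fcna, Marco, Timd4, Clec4f, Vsig4, Cd5l, Folr2, Clec1b or Slc40a1, and 10 of 10 were found. They were named by symbol alone, and Cd163 and Fcna were set against the other 8. Kupffer cells sit in the sinusoids, where they take up bacteria, aged red cells, haemoglobin and dying cells from the blood. Scavenger receptors, lectins and a complement receptor do this work, and an iron exporter returns the recovered iron. In fatty liver disease, resident Kupffer cells are known to be partly lost and partly replaced by cells derived from monocytes, which also supply the lipid-associated macrophages of the diseased liver.

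The 6 libraries came from livers of female mice fed a western diet, rich in fat and sugar, for 20 weeks, beginning when they were 8 weeks old. The groups were HKDC1 LKO, a liver-specific knockout of the hexokinase family gene Hkdc1, and HKDC1 fl/fl (flox), mice with the floxed gene. No label names the Cre driver behind the knockout or says that each library came from its own mouse. The p-values therefore rest on the spread between the samples compared, part of which may be technical. By the genotype field 3 libraries were LKO and 3 were flox, but the library labelled flox 3 is titled LKO and the library labelled LKO 1 is titled flox. Total counts were 16166515 to 17366295 per library.

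Hkdc1 itself had 1, 4 and 1 counts in LKO 2, LKO 3 and the library labelled flox 3, against 10, 49 and 22 counts in the library labelled LKO 1, flox 1 and flox 2. The level in the library labelled flox 3 therefore goes against its genotype field. Hkdc1 did not pass in any grouping (edgeR adjusted p 0.108 to 0.571). Tests were run in 3 groupings: the 4 libraries whose labels agree (LKO 2 and LKO 3 against flox 1 and flox 2), the groups of the titles, and the groups of the genotype field. Where a fold change names no grouping, it is that of the 4 agreeing libraries. The 3 groupings share libraries and are not independent of each other. The hepatocyte genes Alb, Ttr, Apoa1, Cps1 and Serpina1a together held 80990.4, 86250.0 and 88363.5 CPM (counts scaled by library size) in LKO 2, LKO 3 and the library labelled flox 3, against 70595.6, 59731.7 and 66544.5 CPM in the library labelled LKO 1, flox 1 and flox 2. The defining genes of liver were thus present, and their sum was higher in all 3 libraries titled LKO than in all 3 titled flox, as Cd163 and Fcna were. None of these 5 genes passed in any grouping by edgeR, with log2 fold changes of 0.35 to 0.89 in the agreeing libraries, and their part in the levels of the members was not tested. LKO 2 and, at 10.5% of its level, LKO 3 also held adrenal cortex transcripts: the 9 listed adrenal genes summed to 2579.49 and 271.741 CPM there, against 6.29 to 9.77 CPM in the other 4 libraries, the library labelled flox 3 included. The 7 listed fat genes summed to 119 CPM in LKO 2, 15.2 CPM in LKO 3 and at most 1.23 CPM elsewhere.

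Cd163 and Fcna were the members that passed in the 4 agreeing libraries (by the titles only Fcna did, and by the genotype field neither), and the promoter windows of both are shown because their start regions can be set beside that of Clec4f, a member that did not pass. Each window runs from 250 bases before to 50 bases after the gene's start in RefSeq (build GRCm38.p6, not the build of the counts) and is written 5′ to 3′ on the gene's strand. Capitals mark AGGAAGT, the core bound by the macrophage factor PU.1, and TGCTGAC, a core bound by MAF factors, searched on both strands. The windows are chr6:124304401-124304700 (plus strand) for Cd163, chr2:25627925-25628224 (minus strand) for Fcna and chr6:83656067-83656366 (minus strand) for Clec4f.
Cd163: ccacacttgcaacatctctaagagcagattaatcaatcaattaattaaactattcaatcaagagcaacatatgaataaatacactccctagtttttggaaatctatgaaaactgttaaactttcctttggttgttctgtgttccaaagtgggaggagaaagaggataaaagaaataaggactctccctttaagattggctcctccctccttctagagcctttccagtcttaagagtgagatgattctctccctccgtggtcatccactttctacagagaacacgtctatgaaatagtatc
Fcna: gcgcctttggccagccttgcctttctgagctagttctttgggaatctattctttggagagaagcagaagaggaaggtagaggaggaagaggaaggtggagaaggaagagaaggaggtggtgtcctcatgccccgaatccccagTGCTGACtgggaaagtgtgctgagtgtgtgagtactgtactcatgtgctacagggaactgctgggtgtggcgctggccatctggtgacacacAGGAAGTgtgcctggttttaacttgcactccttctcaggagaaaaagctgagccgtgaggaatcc
Clec4f: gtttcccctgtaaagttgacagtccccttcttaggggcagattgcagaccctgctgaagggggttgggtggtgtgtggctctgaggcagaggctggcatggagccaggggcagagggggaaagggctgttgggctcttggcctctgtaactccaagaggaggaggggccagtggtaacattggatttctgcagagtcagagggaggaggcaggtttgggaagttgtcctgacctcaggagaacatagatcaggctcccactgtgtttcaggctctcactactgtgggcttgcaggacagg
The Fcna window held AGGAAGT beginning 15 bases before the start and TGCTGAC beginning 107 bases before it, and the Cd163 and Clec4f windows held neither. RefSeq windows were found for 9 of the 10 genes, 10 windows in all, since Folr2 has more than 1. AGGAAGT was in 2 of these 10 windows, against 9.35% of the 32851 windows of all genes, and TGCTGAC in 2, against 4.67%. Beside these, the matches were AGGAAGT at 137 and 82 bases before the start in a Folr2 window and TGCTGAC at 45 bases before it in the Timd4 window. These matches describe letters and say nothing of whether a factor binds there.

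Per length, the members spanned a wide range in these livers. Cd5l and Clec4f were the most abundant, with medians of 172 and 86.8 FPKM (fragments scaled by gene length and library size) over the 6 libraries. Vsig4, Fcna and Slc40a1 followed at medians of 37.8, 29.0 and 19.6 FPKM. Marco, Clec1b, Folr2, Timd4 and Cd163 had medians of 4.70, 3.41, 3.15, 2.71 and 1.51 FPKM. All 10 passed the filter on low counts in every grouping, and the lowest count of any member in any library was 18, for Cd163 in flox 1.

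Cd163 (ENSMUSG00000008845, GRCm39 chromosome 6, 124281615 to 124307486, plus strand) encodes a scavenger receptor for haemoglobin. It had 27.1, 21.4 and 12.2 CPM in LKO 2, LKO 3 and the library labelled flox 3, against 5.10, 0.935 and 1.73 CPM in the library labelled LKO 1, flox 1 and flox 2. All 3 libraries titled LKO lay above all 3 titled flox, and the lowest value was 29.0-fold under the highest. In the 4 agreeing libraries Cd163 rose to 24.3 ± 4.05 CPM in LKO, against 1.33 ± 0.561 CPM in flox (SD, n = 2 each). Its log2 fold change there was 4.21 (SE 0.33, adjusted p = 0.0176 by edgeR). Fewer cells of a type and less RNA per cell cannot be told apart in these bulk samples. Behind the lowest value were 18 counts, with an exact Poisson interval of 10.7 to 28.4, and behind the highest 451 counts (410 to 495). Such intervals are at 95% and cover counting error only. By the titles the log2 fold change was 2.98 (SE 0.56, adjusted p = 0.0872 by edgeR) and by the genotype field 1.87 (SE 0.95, adjusted p = 0.571 by edgeR), and neither passed. Leaving out 1 library gave 1.37 (without flox 1) to 3.76 (without flox 3) by the genotype field, with no call. Without flox 1 the value in the agreeing libraries was 3.81, from a fit that leaves 1 library in the flox group, so no call is read from it. Without LKO 1 the value by the titles was 3.94 and passed (edgeR adjusted p = 0.0199).

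Fcna (ENSMUSG00000026938, chromosome 2, 25514678 to 25518042, minus strand) encodes ficolin A, a secreted lectin that binds microbial sugars and starts the lectin pathway of complement. It had 63.3, 59.4 and 54.5 CPM in LKO 2, LKO 3 and the library labelled flox 3, against 28.9, 21.2 and 22.9 CPM in the library labelled LKO 1, flox 1 and flox 2. The 3 libraries titled LKO lay close together and apart from the 3 titled flox. In the 4 agreeing libraries Fcna rose to 61.3 ± 2.80 CPM in LKO, against 22.0 ± 1.20 CPM in flox (SD, n = 2 each), a log2 fold change of 1.48 (SE 0.13, adjusted p = 0.0176 by edgeR). By the titles it rose to 59.1 ± 4.42 CPM in LKO, against 24.3 ± 4.05 CPM in flox (SD, n = 3 each), a log2 fold change of 1.28 (SE 0.14, adjusted p = 0.0218 by edgeR). It did not pass by the genotype field (log2 fold change 0.62, SE 0.43, adjusted p = 0.636 by edgeR), with 0.39 without flox 1 and 1.20 without flox 3. Leaving out 1 library kept its size at 1.42 to 1.53 in the agreeing libraries and 1.20 to 1.43 by the titles. In the agreeing libraries this leaves 1 library in a group, so no call is read there. By the titles the call was lost without flox 2, LKO 2 or LKO 3 (edgeR adjusted p = 0.170, 0.0531 and 0.129). Fcna overlaps an antisense lncRNA, Fcnaos, that had 2 to 15 counts, and the strand setting of the counting is not given.

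**Figure D1:**
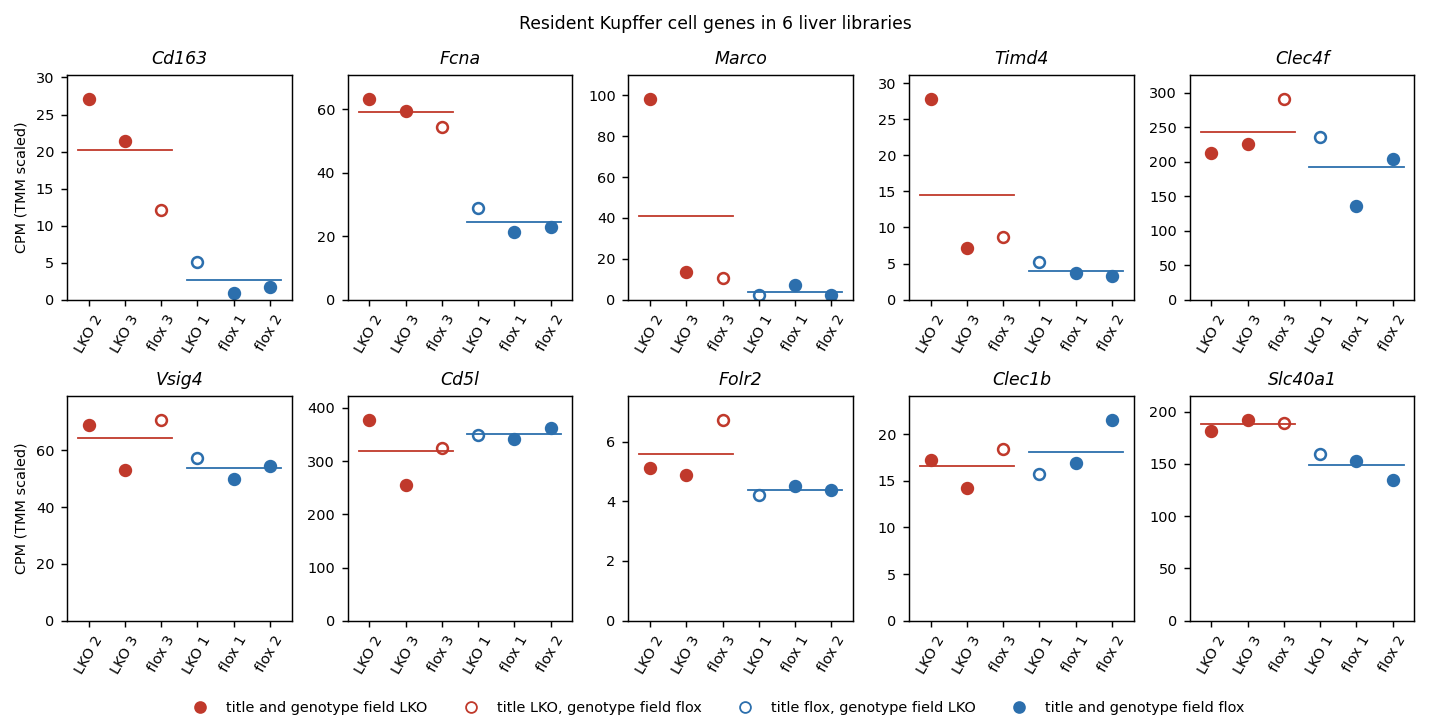
Level of each resident Kupffer cell gene in CPM (vertical axis, from 0) in the 6 libraries, with those titled LKO left of those titled flox. Points are libraries, open where title and genotype field disagree, and lines are means of the title groups. The title groups do not overlap for Cd163, Fcna, Marco, Timd4, Slc40a1 and Folr2. Cd163, Fcna, Marco, Timd4 and Cd5l are highest in LKO 2, Marco and Timd4 by the widest margins. The 6 genes other than Cd163, Fcna, Marco and Timd4 vary by at most 2.14-fold between libraries.

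In the 4 agreeing libraries 2 of the 10 members passed, both higher in LKO, where 0.622% of 14625 genes passed and 0.13% did so as higher. By the titles 1 of 10 passed, Fcna, where 0.356% of 14310 genes passed and 0.0559% did so as higher. By the genotype field none of the 10 members passed by edgeR, DESeq2 or limma, and 0 had an unadjusted edgeR p under 0.05, where 8.85% of 14310 genes had such a p and 0% passed. In the agreeing libraries and by the titles 5 members each had an unadjusted p under 0.05 (Cd163, Fcna, Marco, Timd4 and Slc40a1), where 16.6% and 13.9% of genes did. Members above 0 numbered 8, 8 and 7 of 10 in the agreeing libraries, by the titles and by the genotype field, where 50.6%, 50.7% and 49.1% of genes were above 0. The median log2 fold change of the members was 0.38 in the agreeing libraries, 0.35 by the titles and 0.13 by the genotype field, while that of all genes tested was between -0.01 and 0.01 in each. The members were chosen with earlier results of these data known, so their counts are a description of the list.

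**Figure D2:**
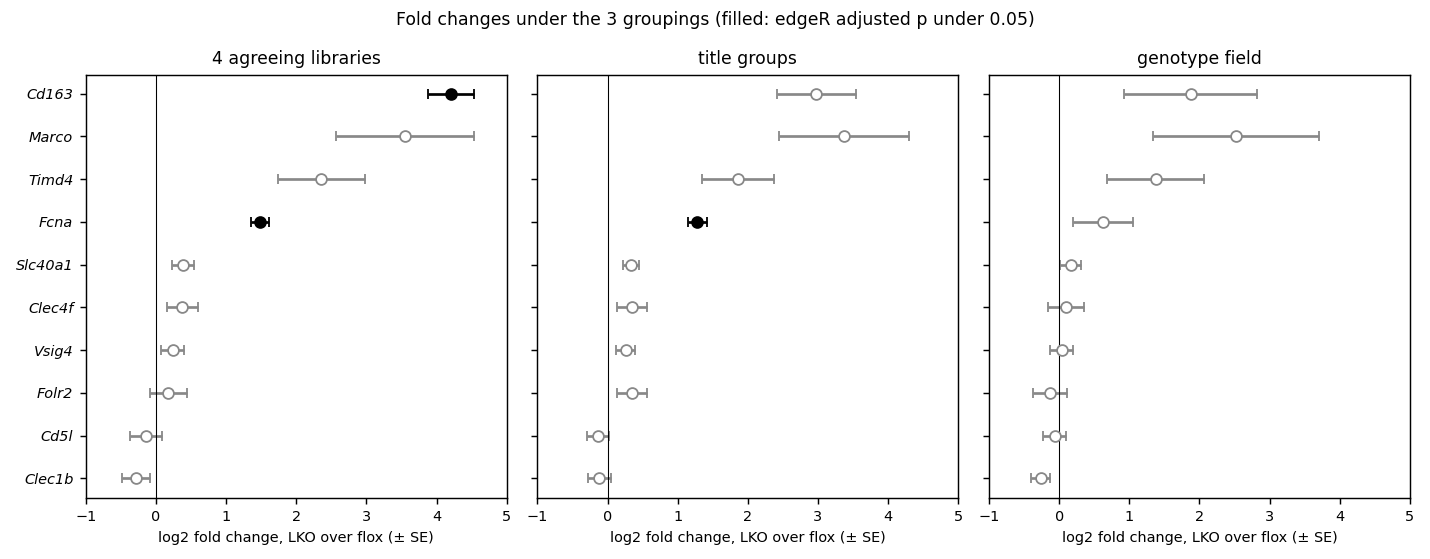
Log2 fold change of each member, LKO over flox, with its SE (horizontal axis) in the 3 groupings. Filled points passed an edgeR adjusted p of 0.05: Cd163 (4.21) and Fcna (1.48) in the agreeing libraries and Fcna (1.28) by the titles.

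Marco and Timd4 had large fold changes that did not pass, and 1 library carried most of their size. Marco (chromosome 1, 120402267 to 120432753, minus strand) encodes a scavenger receptor with a collagen-like stalk that binds bacteria. It had 98.5 CPM in LKO 2, 13.6 in LKO 3 and 10.5 in the library labelled flox 3, against 2.26, 7.17 and 2.28 CPM in the library labelled LKO 1, flox 1 and flox 2. LKO 2 stood far above every other library. The log2 fold change was 3.55 in the agreeing libraries (SE 0.98, adjusted p = 0.169 by edgeR), and 1.53 without LKO 2. Timd4 (chromosome 11, 46701627 to 46735159, plus strand) encodes a receptor for phosphatidylserine on dying cells and marks long-lived resident macrophages. It had 27.9, 7.09 and 8.74 CPM in LKO 2, LKO 3 and the library labelled flox 3, against 5.22, 3.64 and 3.21 CPM in the library labelled LKO 1, flox 1 and flox 2. The groups of the titles did not overlap for either gene. Timd4 had a log2 fold change of 2.36 in the agreeing libraries (SE 0.62, adjusted p = 0.159 by edgeR) and 1.06 without LKO 2. Without LKO 3, which leaves LKO 2 alone in its group, the log2 fold change was 4.37 for Marco and 3.03 for Timd4. In the agreeing libraries both passed with no filter on low counts, and Timd4 passed by DESeq2. By the titles Marco had a log2 fold change of 3.37 and Timd4 one of 1.86 (adjusted p = 0.170 and 0.172 by edgeR), which were 1.62 and 0.98 without LKO 2. By the genotype field these were 2.52 and 1.38 (adjusted p = 0.559 and 0.569 by edgeR), which were 0.26 and 0.25 without LKO 2. By the titles both passed by DESeq2 (adjusted p = 0.0430 for Marco and 0.0042 for Timd4).

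The remaining 6 members stayed within narrow ranges. Clec4f (chromosome 6, 83621524 to 83633169, minus strand), a C-type lectin that in mice is used to define Kupffer cells, had 213, 226 and 292 CPM in LKO 2, LKO 3 and the library labelled flox 3. It had 236, 136 and 204 CPM in the library labelled LKO 1, flox 1 and flox 2, so that the title groups overlapped, and flox 1 was the lowest. Its log2 fold change in the agreeing libraries was 0.37 (SE 0.22, adjusted p = 0.469 by edgeR). Vsig4 (chromosome X, 95290809 to 95337044, minus strand), a complement receptor that clears opsonised bacteria, had 68.8, 53.2 and 70.7 CPM in LKO 2, LKO 3 and the library labelled flox 3, against 57.2, 49.9 and 54.3 CPM in the library labelled LKO 1, flox 1 and flox 2. The title groups overlapped for Vsig4 too, and its log2 fold change was 0.23 (SE 0.17, adjusted p = 0.54 by edgeR).

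Cd5l (chromosome 3, 87265188 to 87278380, plus strand) encodes a secreted scavenger receptor protein made by macrophages. It had 378, 255 and 326 CPM in LKO 2, LKO 3 and the library labelled flox 3, against 349, 342 and 362 CPM in the library labelled LKO 1, flox 1 and flox 2. LKO 3 was the lowest and LKO 2 the highest, and the log2 fold change was -0.15 (SE 0.23, adjusted p = 0.803 by edgeR). Clec1b (chromosome 6, 129374260 to 129386298, plus strand), a receptor for podoplanin that platelets also carry, had 14.3 to 21.5 CPM over the 6 libraries and a log2 fold change of -0.28 (SE 0.20, adjusted p = 0.529 by edgeR). It overlaps Clec9a on the same strand, which had 94 to 155 counts, so reads could be split between them. Of the 6 listed platelet genes 5 were in the table and summed to 7.71 to 19.0 CPM.

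Folr2 (chromosome 7, 101489195 to 101506401, minus strand), folate receptor beta, had 4.21 to 6.73 CPM and a log2 fold change of 0.17 (SE 0.26, adjusted p = 0.798 by edgeR). Its highest value was in the library labelled flox 3. Folr2 overlaps an antisense lncRNA, Gm10602, that had 16 to 34 counts, against 71 to 104 for Folr2, and the strand setting is not given. Slc40a1 (chromosome 1, 45947228 to 45965683, minus strand), the iron exporter ferroportin, had 182, 192 and 190 CPM in LKO 2, LKO 3 and the library labelled flox 3, against 160, 153 and 135 CPM in the library labelled LKO 1, flox 1 and flox 2. The title groups did not overlap for Slc40a1, but the step was small, with a log2 fold change of 0.38 in the agreeing libraries (SE 0.15, adjusted p = 0.29 by edgeR) and 0.33 by the titles (SE 0.11, adjusted p = 0.238 by edgeR). Every LKO library was above every flox library for 7 of the 10 members in the agreeing libraries, where 23.8% of genes did so, for 6 by the titles, where 8.35% did so, and for 0 by the genotype field, where 7.63% did so. The log2 fold changes of these 6 members ran from -0.13 to 0.35 by the titles and from -0.27 to 0.16 by the genotype field, and none of the 6 passed by edgeR in any grouping.

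Counts within 1 library need no scaling between libraries, so Cd163 and Fcna were also set against each of the other 8 members by their count ratio. The 8 ratios of each gene share its counts, so they are not independent of each other or of its own group difference. Such ratios were not computed for genes outside the list. Cd163 counts were 12.7%, 9.47% and 4.17% of Clec4f counts in LKO 2, LKO 3 and the library labelled flox 3, against 2.17%, 0.687% and 0.846% in the library labelled LKO 1, flox 1 and flox 2. By the titles the mean log2 ratio of Cd163 to Clec4f was -3.65 ± 0.83 in LKO and -6.53 ± 0.88 in flox (SD, n = 3 each), a difference of 2.88. The exact two-sided permutation p was 0.1, the smallest that 3 against 3 can give, and 0.133 after Benjamini-Hochberg adjustment over 16 ratios. Against Clec1b, Cd5l, Vsig4, Slc40a1 and Folr2 the differences were 3.36, 3.40, 3.00, 2.91 and 2.91, and the groups did not overlap for any of these. Against Marco and Timd4 the groups overlapped, with differences of 0.39 and 1.64 (exact permutation p = 0.7 and 0.2).

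Fcna counts were 29.7%, 26.3% and 18.7% of Clec4f counts in LKO 2, LKO 3 and the library labelled flox 3, against 12.3%, 15.6% and 11.2% in the library labelled LKO 1, flox 1 and flox 2. By the titles the difference in the log2 ratio was 0.92 against Clec4f, 0.95 against Folr2, 0.95 against Slc40a1, 1.04 against Vsig4, 1.41 against Clec1b and 1.44 against Cd5l. The groups did not overlap for these 6 ratios (exact permutation p = 0.1 each, the smallest possible). Against Timd4 and Marco the differences were -0.32 and -1.57, with overlapping groups (exact permutation p = 0.9 and 0.3). In the 4 agreeing libraries the ratios of Cd163 differed by 1.07 to 4.53 and those of Fcna by -1.70 to 1.76. There the smallest exact p is 0.333, so this test cannot pass, and by the genotype field the groups overlapped for all 16 ratios.

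**Figure D3:**
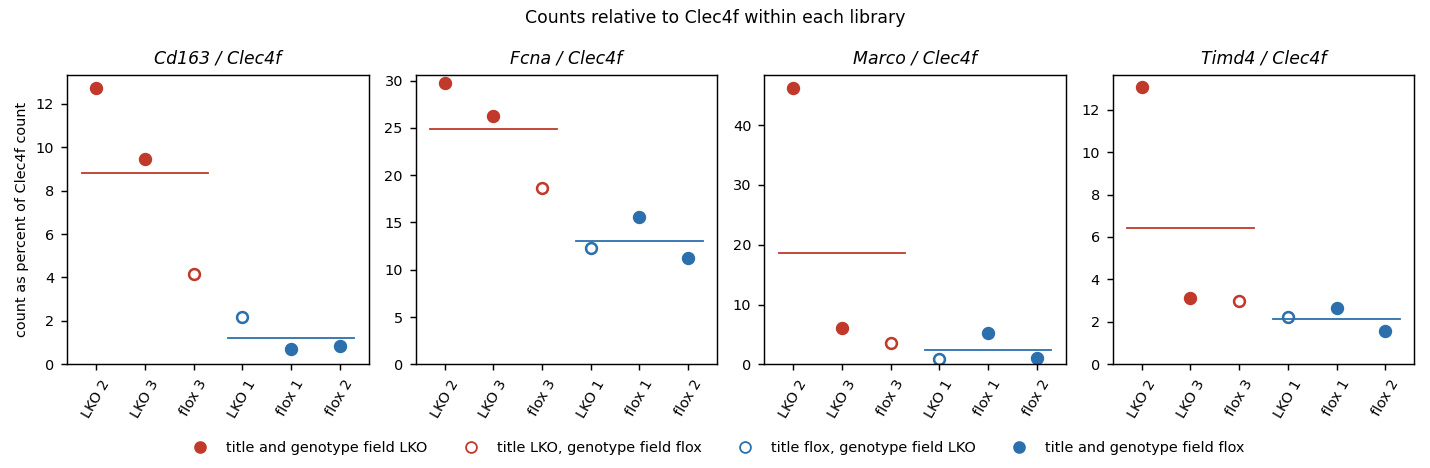
Counts of Cd163, Fcna, Marco and Timd4 as a percentage of the Clec4f count of the same library (vertical axis, from 0). Libraries titled LKO are left of those titled flox, open points have labels that disagree, and lines are means of the title groups. The Cd163 share is 12.7% in LKO 2 and 0.687% in flox 1.

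Over the 6 libraries the centred log2 profiles fell into steady and variable members. The root mean square spread was 0.18 to 0.33 for Clec1b, Cd5l, Slc40a1, Vsig4, Folr2 and Clec4f, against 0.65 for Fcna, 0.97 for Timd4, 1.60 for Cd163 and 1.74 for Marco. The closest pair of members was Vsig4 and Folr2, with a root mean square difference of 0.14, followed by Cd5l and Clec1b with 0.15. The profile of Fcna was nearest to that of Slc40a1 (0.49), and Cd163 lay nearest to Timd4 (0.95) and Fcna (0.97). Among 10114 other genes with a mean of at least 5 CPM and a symbol that is not a clone name, those most like Cd163 were Cyp3a44, Cyp2c37, Cyp2c69, Sult2a7 and Cyp2c40, with differences of 0.39 to 0.58. Those most like Fcna were Serpina1c, the prolactin receptor gene Prlr, Hacl1, Rdh16f2 and Cyp2c50, with differences of 0.11 to 0.21. Cyp2c37, a cytochrome P450 gene, had 757, 1072 and 549 CPM in LKO 2, LKO 3 and the library labelled flox 3, against 315, 80.8 and 137 CPM in the library labelled LKO 1, flox 1 and flox 2. Prlr had 342, 369 and 286 CPM in the first 3 of these libraries, against 215, 132 and 124 CPM in the others. The Cyp2c, Cyp3a, Sult2a and Serpina1 genes have near-identical copies that share reads and are uncertain.

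The adrenal and fat transcripts of LKO 2 were set beside each member. LKO 3 held 10.5% of the adrenal sum of LKO 2, 12.8% of its fat sum, 13.8% of its Marco level and 25.5% of its Timd4 level. It held 78.9% of the Cd163 level of LKO 2 and 93.7% of its Fcna level. The library labelled flox 3 held 0.319% of the adrenal sum of LKO 2, 10.6% of its Marco, 31.4% of its Timd4, 44.8% of its Cd163 and 86.1% of its Fcna. With LKO 2 and LKO 3 both left out, the log2 fold change of that library over the 3 titled flox was 2.24 for Cd163 and 1.17 for Fcna, neither of which passed (edgeR adjusted p = 0.787 and 0.429). That fit has 1 library in 1 group, assumed to vary like the other. Among 9 listed genes of resident macrophages outside the liver, 8 were in the table. Of these, Gas6 and Lyve1, which liver cells also express, had at least 201 and 15.3 CPM in every library. Cd209f was at 0 in 5 libraries and at 0.12 CPM in LKO 2. Cbr2 was at 1.14 CPM in LKO 2 and at 0 to 0.156 CPM in the other 5 libraries. F13a1 and Cd209a were highest in flox 1 (4.57 and 1.25 CPM). The list summed to 221 CPM in LKO 2, the lowest of the 6 libraries, and 347 CPM in the library labelled LKO 1. Most of this sum was Gas6, at 201 CPM in LKO 2 and 324 CPM in the library labelled LKO 1. In the agreeing libraries both LKO libraries held high adrenal and fat sums and both flox libraries low ones. Genotype and these sums cannot be told apart there. The part of adrenal or fat tissue in the levels of Cd163, Fcna, Marco, Timd4 and the other members in LKO 2 and LKO 3 was not tested.

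**Figure D4:**
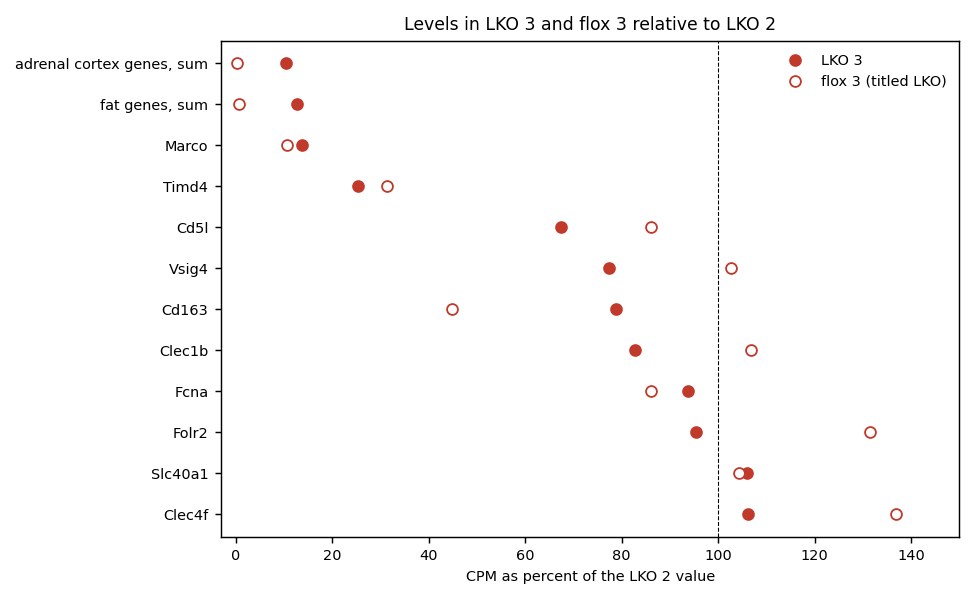
CPM in LKO 3 (filled) and in the library labelled flox 3 (open) as a percentage of the LKO 2 value (horizontal axis) for the summed adrenal cortex and fat genes and for each member. In LKO 3 Marco is at 13.8%, Cd163 at 78.9%, Fcna at 93.7% and the adrenal sum at 10.5%. In the library labelled flox 3 Marco is at 10.6% and the adrenal sum at 0.319%.

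Other macrophage lists held no gene that passed as higher in LKO in any grouping. By the titles and by the genotype field the medians were -0.12 and -0.23 for the further Kupffer cell genes, -0.09 and -0.14 for the transcription factor genes and -0.30 and -0.25 for the pan-macrophage genes, with 0 passing. Of 8 further Kupffer cell genes 0 passed in the agreeing libraries, 2 were above 0 and 6 below, with a median log2 fold change of -0.23. Cd207, a lectin gene also found in Langerhans cells, had the lowest p (log2 fold change -1.42, SE 0.41, adjusted p = 0.178 by edgeR), and Pcolce2 was next (1.00, edgeR adjusted p = 0.42). Of 10 transcription factor genes of Kupffer cells 0 passed, with a median of -0.17. Id3 and Irf8 had the lowest p there (log2 fold change -0.40 and -0.56, edgeR adjusted p = 0.231 and 0.266). Of 13 pan-macrophage genes 0 passed, 4 were above 0 and 9 below, with a median of -0.38, and the lysosomal genes Ctss (-1.22) and Cd68 (-0.97) had the lowest p (edgeR adjusted p = 0.112 and 0.125). Adgre1, the macrophage antigen F4/80, chosen after its values were seen, was at 120 CPM in LKO 2 and at 42.1 to 55.7 CPM in the other 5 libraries. LKO 2 was thus the highest, as it was for Marco, Timd4, Cd163, Fcna and Cd5l.

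The list of monocyte and neutrophil genes and that of lipid-associated macrophage genes also had medians below 0. Of 11 monocyte and neutrophil genes 0 passed in the agreeing libraries and 11 were below 0, with a median of -1.41, and 0 passed by the titles (median -1.06) or by the genotype field (median -1.19). The fractalkine receptor gene Cx3cr1 and the chemokine receptor gene Ccr2 had the lowest p (log2 fold change -3.14 and -2.22, edgeR adjusted p = 0.0627 and 0.104). Of 9 lipid-associated macrophage genes 3 fell in the agreeing libraries, where 0.492% of genes fell, and 9 were below 0. These were the tetraspanin gene Cd63, the osteopontin gene Spp1 and the lipid receptor gene Trem2, at -2.21, -3.27 and -3.27 on the log2 scale (adjusted p = 0.0176, 0.0291 and 0.0455 by edgeR). By the titles 2 of 9 fell, where 0.3% of genes fell: Cd63 by 1.88 and Trem2 by 2.91 on the log2 scale. None of the 9 passed by the genotype field (edgeR), with Cd63 at -1.18, Trem2 at -1.68 and Spp1 at -1.84 (adjusted p = 0.569, 0.577 and 0.554 by edgeR). The list's summed level was 204 to 223 CPM in LKO 2 and LKO 3 and 272 CPM in the library labelled flox 3, against 484 CPM in the library labelled LKO 1 and 820 to 1262 CPM in flox 1 and flox 2. Of 10 sinusoidal endothelial genes 0 passed and 9 were above 0, with a median of 0.23 (0.25 by the titles and 0.09 by the genotype field, with 0 passing), and their sum was 481 CPM in flox 1 and 596 to 676 CPM in the other libraries. Pecam1 and Dnase1l3 had the lowest p (log2 fold change 0.48 and 0.83, edgeR adjusted p = 0.183 and 0.189). The part of these cell types in the levels of the members was not tested.

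**Figure D5:**
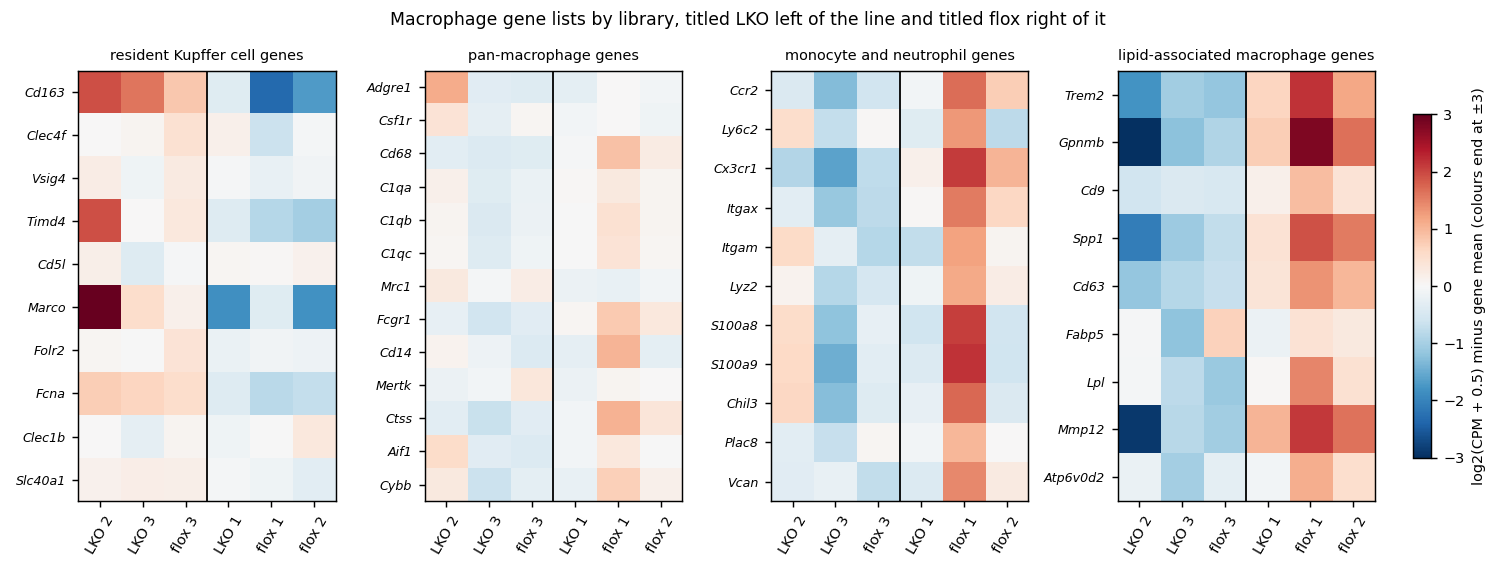
Log2(CPM + 0.5) minus the gene's mean over the 6 libraries (colour) for the resident Kupffer cell genes and 3 other lists, one row per gene and one column per library. Libraries titled LKO are left of the line and those titled flox right of it. Cd163 and Fcna are red left of the line, and lipid-associated macrophage genes are mostly blue there.

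The pathways in which Cd163 and Fcna act were read from 3 lists, each of which includes one of them. The haem list also holds the member Slc40a1, and the scavenger list the members Marco and Cd5l. A pass of Cd163 or Fcna here is the one already described. Over all genes 0.622% passed in the agreeing libraries, 0.356% by the titles and 0% by the genotype field. Of 14 haem and iron handling genes Cd163 was the 1 that passed in the agreeing libraries, 8 were above 0 and 6 below, and the median was 0.06. Hp, which encodes the haemoglobin-binding protein haptoglobin, had a log2 fold change of -0.70 (SE 0.27, adjusted p = 0.274 by edgeR). Hmox1, the haem-degrading enzyme, chosen after its values were seen, had 36.8 to 58.6 CPM over the 6 libraries and a log2 fold change of 0.08. Of 10 tested lectin complement genes Fcna was the 1 that passed, 9 were above 0 and 1 below, and the median was 0.36. Colec10, the collectin CL-L1, was next, with 42.7, 36.9 and 47.6 CPM in LKO 2, LKO 3 and the library labelled flox 3, against 24.2, 11.7 and 18.9 CPM in the library labelled LKO 1, flox 1 and flox 2. It did not pass (log2 fold change 1.38, SE 0.24, adjusted p = 0.0761 by edgeR), although its title groups did not overlap. By the titles 8.35% of genes had every LKO library above every flox library. Fcnb, the other mouse ficolin gene, was at most 0.83 CPM. Of 12 scavenger receptor genes Cd163 was the 1 that passed, 5 were above 0 and 7 below, with a median of -0.25. By the titles the haem, lectin and scavenger lists had medians of -0.06, 0.16 and -0.19, and Fcna was the 1 gene of them that passed. Medians by the genotype field were 0.07, 0.23 and -0.15, and 0 passed.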

How the data were processed

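The authors deposited 1 table with whole-number counts per gene, not normalized, and FPKM for each of 6 liver libraries. Build GRCm39 and the programs featureCounts, HISAT, Cufflinks, StringTie and fastp are named in the submitters' processing notes, with no version or order. No source used here gives the annotation or says whether strand was used. Per the labels' protocols, poly-A RNA was selected from TRIzol extracts. Counts were tested with edgeR 4.0.16 (quasi-likelihood, R 4.3.3) over all genes kept by filterByExpr (minimum count 10, minimum total 15), with TMM scaling and Benjamini-Hochberg adjustment at 0.05. Hkdc1 was always kept and is left out of counts of genes. The SE is the log2 fold change divided by the square root of F. CPM use library totals and TMM factors over 6 libraries. Deposited FPKM served to compare levels between genes. Every pair of libraries differed by more than sampling noise (chi-square per gene 12.7 to 53.4). The edgeR fit was tested on counts simulated with its own dispersions, which says nothing of the conflicting labels or the adrenal and fat transcripts.

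The members and lists were chosen with earlier results of these data known. Genes named were the 10 members, Hkdc1, the 2 list genes of lowest p in the agreeing libraries or any that passed, and the 5 genes nearest in profile to Cd163 and to Fcna. For some lists these genes are not named. The other hepatocyte genes, overlapping genes, Fcnb, Cd209f, Cbr2, F13a1, Cd209a, Adgre1 and Hmox1 were named outside this rule. Alternatives were other size factors, no filter, DESeq2 1.42.0, limma 3.58.1 (voom, or trend on log2(FPKM + 1) and log2(FPKM + 0.1)) and leaving out each library. Leaving out LKO 2 and LKO 3 together was added after the data were seen.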

Additional observations from a re-analysis of the deposited data

How the results depend on the processing

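Cd163, Fcna, Marco, Timd4 and Slc40a1 stayed above 0 in every grouping and alternative run. In the agreeing libraries 91 genes and 2 members passed, against 1108 genes and 4 members with no filter, 733 genes by DESeq2 and 44 by limma-voom. Leaving out 1 library gave 0 to 759 genes, 0 to 4 members, and log2 fold changes of 3.81 to 4.69 for Cd163 and 1.42 to 1.53 for Fcna. On log2(FPKM + 1), which understates changes of low genes, Cd163 was 2.08.

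By the titles 51 genes and 1 member passed, against 247 genes and 2 members with no filter, 629 genes and 4 members by DESeq2, 24 genes by limma-voom and 30 by limma-trend on log2(FPKM + 1). There Cd163 also passed with no filter (log2 fold change 2.98, edgeR adjusted p = 0.0148) and by DESeq2 (2.97, adjusted p = 0.0039). Leaving out 1 library gave 0 to 238 genes, 0 to 2 members, and 2.57 to 3.94 for Cd163 and 1.20 to 1.43 for Fcna. Without both LKO 2 and LKO 3, Fcna was 1.17 and Clec1b 0.032. By the genotype field DESeq2 passed 35 genes and limma-trend 1 with either pseudocount, against 0 by edgeR, where 1267 had an unadjusted p under 0.05.

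Members near 0 changed sign. Without 1 library Cd5l ranged from -0.45 to 0.11 in the agreeing libraries, -0.27 to 0.0091 by the titles and -0.18 to 0.087 by the genotype field. Clec1b ranged from -0.20 to 0.022 by the titles. By the genotype field Clec4f ranged from -0.14 to 0.41, Folr2 from -0.25 to 0.095 and Vsig4 from -0.076 to 0.20, and Vsig4 was -0.0297 and -0.0305 by limma-trend with the pseudocounts 1 and 0.1. The cause of these changes was not tested. On log2(FPKM + 0.1) the median of all genes was -0.13 in the agreeing libraries. No paired analysis was possible because the labels give no replicate number that both groups share. With 2 or 3 libraries per group the calls rest on few samples.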
